A study of Homo sapiens with 8 samples.

Results

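U1 small nuclear RNA and 5.8S ribosomal RNA are short structured RNAs that are each encoded by several near-identical genes. Genes whose deposited symbol starts with RNU1-, RNVU1- or RNA5-8S were taken as members, and 12 of the 1221 genes listed in at least 1 of the 3 deposited tables met that rule. They are 10 U1 genes and 2 genes for 5.8S ribosomal RNA. Total RNA of the human leukaemia cell line K-562, depleted of ribosomal RNA, was sequenced in 4 groups of 2 libraries. The groups are TASOR knockout cells, TASOR knockout cells expressing a FLAG-TASOR transgene, parental wild-type cells expressing a FLAG-TASOR2 transgene, and parental wild-type cells that had received a negative guide RNA as controls. TASOR belongs to the human silencing hub, a complex that represses LINE-1 elements, and TASOR2 is its paralog. Per the labels' protocols, cells were grown as clones from single sorted cells after CRISPR/Cas9 transfection, and were transduced with lentivirus that carried an empty vector or a tagged transgene. The labels name no guide for the FLAG-TASOR2 cells, so guide and transgene cannot be told apart in that comparison. Whether the 2 libraries of a group came from separate clones is not stated, so p-values here are not read as measuring a spread between clones.

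U1 RNA is the core of the U1 particle of the spliceosome, which recognises the start of an intron by base pairing between the front end of the RNA and the splice site. It is transcribed by RNA polymerase II from its own genes, carries no poly(A) tail, and is bound by a ring of Sm proteins at a short single-stranded site. 5.8S ribosomal RNA is cut out of the long polymerase I transcript of the ribosomal DNA repeats and pairs with 28S ribosomal RNA in the large ribosomal subunit. The depletion step of these libraries is designed to remove ribosomal RNA, so what is sequenced of 5.8S ribosomal RNA is what escaped removal. The U1 sequences are shown first because reads from identical stretches cannot be told apart by copy. They are RNA sense, written with T, from the GENCODE 29 transcripts. In the first, capitals mark the letters ACTTACCTG that pair with the splice site, at positions 3 to 11, and the letters AATTTGTG of the Sm site, at positions 125 to 132. In the other 3, capitals mark the bases that differ from the first.
RNU1-1: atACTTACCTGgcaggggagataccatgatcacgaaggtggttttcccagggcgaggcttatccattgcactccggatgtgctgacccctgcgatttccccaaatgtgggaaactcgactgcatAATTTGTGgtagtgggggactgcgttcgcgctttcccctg
RNVU1-28: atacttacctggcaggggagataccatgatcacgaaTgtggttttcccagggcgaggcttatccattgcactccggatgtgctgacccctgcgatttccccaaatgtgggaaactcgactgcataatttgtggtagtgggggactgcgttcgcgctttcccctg
RNVU1-27: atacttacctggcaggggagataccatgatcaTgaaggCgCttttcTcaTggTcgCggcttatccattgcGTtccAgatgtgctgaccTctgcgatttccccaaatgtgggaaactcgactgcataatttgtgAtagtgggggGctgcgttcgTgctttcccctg
RNVU1-7: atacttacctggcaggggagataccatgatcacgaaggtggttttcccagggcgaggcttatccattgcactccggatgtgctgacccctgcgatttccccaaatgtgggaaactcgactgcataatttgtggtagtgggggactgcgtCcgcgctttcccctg

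Among annotated genes with a sequence, the RNU1-1 sequence of 164 bases is shared letter for letter by 8, and all 8 were listed with FLAG-TASOR2. They are RNU1-1, RNU1-2, RNU1-3, RNU1-4, RNVU1-18, RNVU1-29, RNU1-27P and RNU1-28P. The last pair carries pseudogene symbols and is classed as pseudogene in RefSeq, although its RNA sequence equals that of RNU1-1. RNVU1-28 differs by 1 substitution, G37T, counted from the first base of RNU1-1. RNVU1-27 differs by 13 substitutions and 1 inserted base. RNVU1-7 also differs by 1 substitution, T150C, but was not listed in any table. RNVU1-31, with the 2 substitutions A49T and C116T, was not listed either.

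The annotation holds 143 U1-named genes, of which 142 have a sequence. The 132 of these that were not listed differed from RNU1-1 at 1 to 71 bases, with a median of 29.5. The letters ACTTACCTG, searched on the RNA strand, occur in 10 of the 10 listed copies and in 48 of the 142 (33.8%), against 2 of 1758 other small nuclear RNA genes (0.114%). The letters AATTTGTG occur in 10 of the 10 listed copies and in 75 of the 142 (52.8%), against 241 of the 1758 (13.7%). Of the 10 listed copies, 8 are identical to RNU1-1, in which the letters are marked, so their matches were fixed beforehand. Among the 132 unlisted copies, 38 also hold ACTTACCTG, so these letters are not particular to the listed copies. These matches describe the sequences and not the use of a site. The sources used here do not say how many of the 143 the authors tested.

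**Figure D1:**
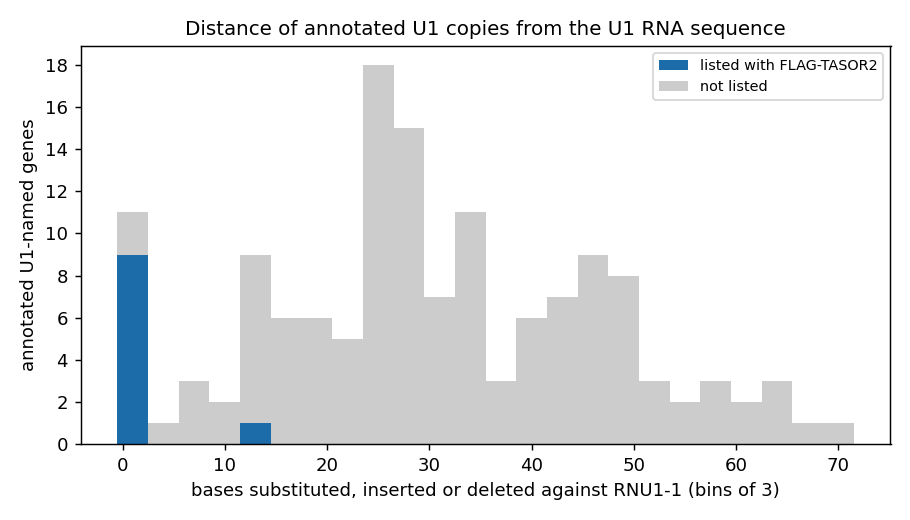
Number of annotated U1-named genes (vertical axis) by the number of bases substituted, inserted or deleted against RNU1-1 (horizontal axis, bins of 3), for the 142 genes with a sequence. The listed copies are the 8 identical genes, RNVU1-28 at 1 difference and RNVU1-27 at 14, while unlisted copies spread from 1 to 71 differences.

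The U1 genes lie at several places in GRCh38, the assembly of the hg38 build that the submitters' processing notes name. RNU1-1 (chromosome 1, 16514122 to 16514285), RNU1-3 (16666785 to 16666948), RNU1-4 (16740516 to 16740679) and RNU1-2 (16895980 to 16896143) form 1 group. RNU1-2 and RNU1-4 lie within introns of CROCC, RNU1-4 also overlaps an exon of a long non-coding RNA gene on the other strand, and so does RNU1-3. RNVU1-18 (143729407 to 143729570), RNVU1-28 (144560666 to 144560829), RNVU1-29 (146376807 to 146376970) and RNVU1-27 (148522601 to 148522765) lie farther along chromosome 1. RNVU1-29 is within an intron of the pseudogene SEC22B4P. RNU1-27P (34546714 to 34546877) and RNU1-28P (34556226 to 34556389) lie on chromosome 14 and overlap no other annotated gene. Within 1 Mb of these copies, 9 other genes were listed with FLAG-TASOR2, 4 as higher and 5 as lower. Of all genes tested in that comparison, 2.56% were listed as higher and 3.76% as lower. How many genes within 1 Mb were tested is unknown, so nothing is read from these 9 about the surroundings of the U1 copies.

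The FLAG-TASOR2 comparison addresses how wild-type cells expressing the transgene differ from the controls. All 10 listed U1 genes were listed as higher, none had an adjusted p below 0.05 (0 of 10), and the authors' deposited table gave them adjusted p-values from 0.254 to 0.392. Of all 14001 genes tested, 0.0357% had an adjusted p below 0.05. A gene is said to have risen or fallen only at an adjusted p below 0.05, so no U1 gene is said to have risen. All 10 had an unadjusted p below 0.05, because the tables hold only such genes, and 0 had one below 0.01. The deposited table lists 2.56% of the 14001 genes tested as higher. The tested number of U1 genes is unknown and reads from within the 8 identical copies cannot be assigned by sequence, so the count of 10 is not set against that share as a number of independent genes. The tables hold 1 value per gene and comparison and none per library. In such bulk RNA, a change in every cell and a change in some of the cells cannot be told apart.

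In the authors' deposited table RNU1-1 was higher by 1.44 ± 0.42 on the log2 scale (approximate SE, adjusted p 0.265), which is 2.71-fold higher in FLAG-TASOR2 cells than in controls. Its 95% interval, from the approximate SE and the recovered degrees of freedom, ran from 0.42 to 2.46. Only genes with an unadjusted p below 0.05 were kept, so such an interval excludes no change for every listed U1 gene by selection. The authors' deposited table puts RNU1-2 at a log2 fold change of 1.27 ± 0.37, RNU1-3 at 1.21 ± 0.40 and RNU1-4 at 1.20 ± 0.39, with the approximate SE after the sign here and below. These 4 are the classical U1 genes, and their order is not resolved, since they differ by less than their SEs. RNVU1-18 and RNVU1-29, of the variant U1 loci, stood at 1.31 ± 0.37 and 1.32 ± 0.39 in the authors' deposited table. RNU1-27P was at 1.37 ± 0.43 and RNU1-28P at 1.38 ± 0.46 there, so copies with pseudogene symbols lay within the range of the others.

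Over the 8 identical copies the log2 fold changes ran from 1.20 to 1.44, with a median of 1.31 and an SD of 0.08. Their approximate SEs ran from 0.37 to 0.46. They go with 6.01 degrees of freedom, more than the libraries of this comparison can give. The SEs therefore do not reflect the spread between those libraries alone. The copies differed from each other by less than the error of any of them, and they are not counted here as 8 independent measurements. Their levels were alike as well. The log2 mean expression over the libraries of the comparison ran from 6.03 to 6.25 in the authors' deposited table, or 65.1 to 76.2 CPM (counts scaled to the size of the library) for each copy of equal length. Summed, the 8 copies came to 559 CPM. The sources used here do not say how reads that match several copies were counted.

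The 2 listed copies of other sequence were lower in level and alike in fold change. RNVU1-28 had a log2 mean expression of 3.14 in the authors' deposited table, a level 7.72-fold below the median of the identical copies at the same length. In the authors' deposited table its log2 fold change was 1.47 ± 0.44 (adjusted p 0.277), the highest of the 10. RNVU1-27, which is 1 base longer, stood in the authors' deposited table at a log2 mean expression of 1.85 and a log2 fold change of 1.43 ± 0.56 (adjusted p 0.392). These fold changes lay 0.16 and 0.12 above the median of the identical copies on the log2 scale. Both gaps are smaller than the SE of either copy and were not tested. Listing required an unadjusted p below 0.05, and the authors' F score gave RNVU1-27 a p of 0.0439. With its SE, a much smaller change of RNVU1-27 would not have been listed. The likeness in fold change is therefore partly set by selection. A fragment of RNVU1-28 that does not cover position 37 reads the same as one of RNU1-1.

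**Figure D2:**
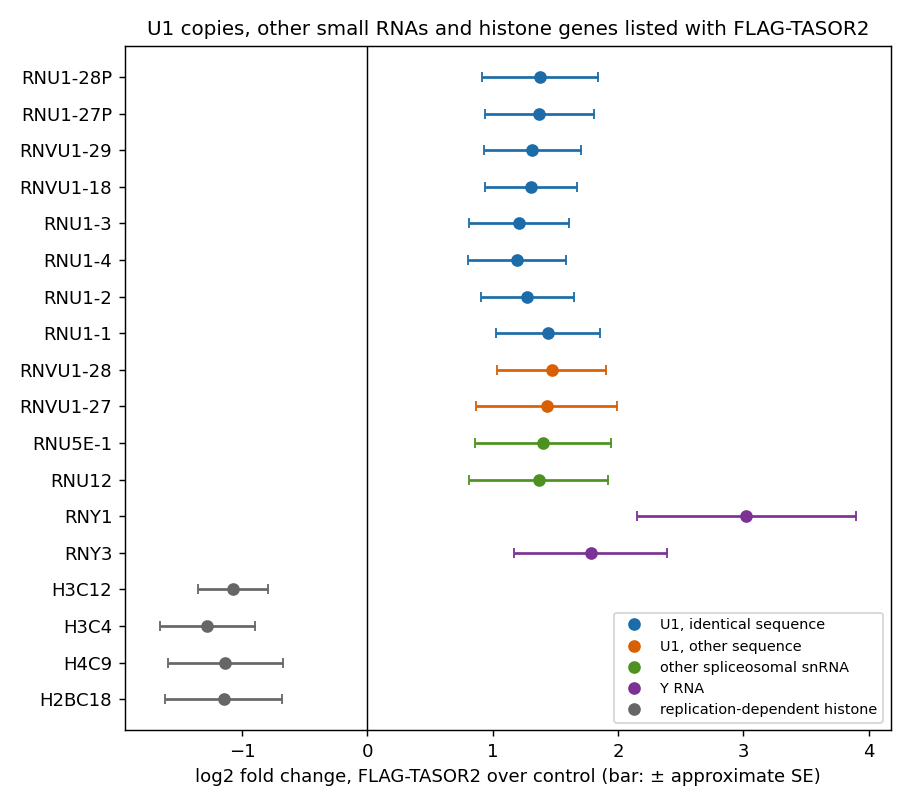
Log2 fold change of FLAG-TASOR2 cells over controls (horizontal axis) with approximate SE as bars, for the 10 listed U1 genes by falling mean expression, followed by other small RNAs and histone genes of the same deposited table. The U1 copies lie between 1.20 and 1.47 with overlapping bars, RNU5E-1 and RNU12 lie among them, the Y RNAs lie higher, and the 4 histone genes lie below 0.

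A further listed gene that bears only the symbol U1 falls outside the rule and was noticed after its values were seen. It lies on the scaffold KI270713.1 at 21861 to 22024, is annotated as a small nuclear RNA gene of 164 bases, and stands in the authors' deposited table at a log2 fold change of 1.31 ± 0.45 (adjusted p 0.333). Its log2 mean expression of 6.26 was next to that of the identical copies. Its letters were not compared here, so whether it is a further identical copy is unknown.

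Set against the rest of the table, the 8 identical U1 copies stood at a high level, while RNVU1-28 was near the median level and RNVU1-27 below it. The median log2 fold change of the 10 was 1.34, against 1.83 over all 358 genes listed as higher in the authors' deposited table. Of those 358, 249 had a log2 fold change above that of every U1 copy and 38 one below. All 8 identical copies were above the median log2 mean expression of the 884 listed genes, 3.05, and only 78 listed genes (8.82%) exceeded the lowest of the 8 in level. The median approximate SE was 0.41 for the U1 copies and 0.56 for genes listed as higher.

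**Figure D3:**
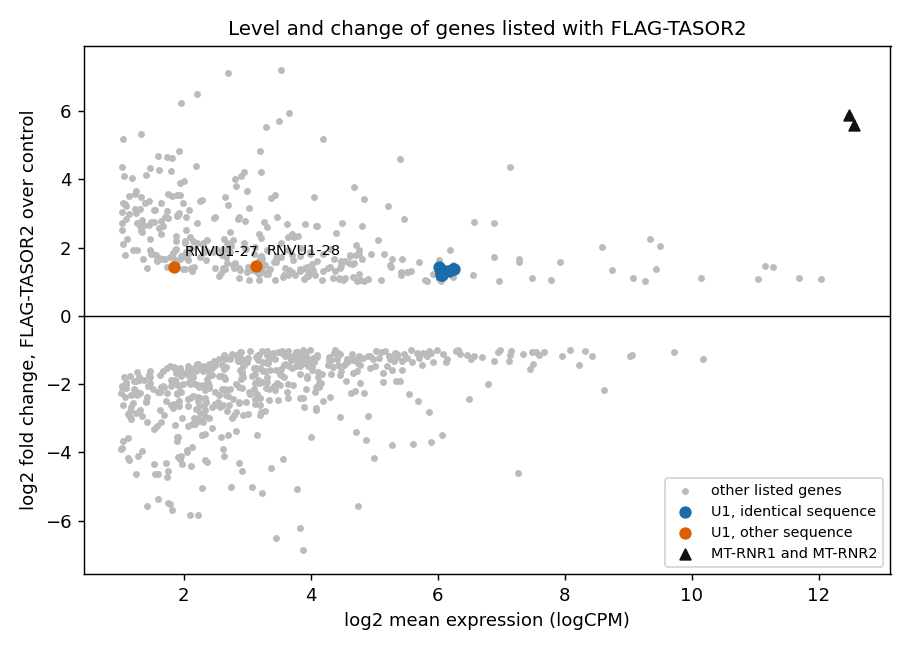
Log2 fold change of FLAG-TASOR2 cells over controls (vertical axis) against log2 mean expression (horizontal axis) for listed genes other than those taken to have a group at 0. The 8 identical U1 copies form 1 tight cluster near a log2 mean expression of 6, RNVU1-28 and RNVU1-27 lie at lower levels with like fold changes, and the mitochondrial ribosomal RNAs lie at the upper right. Only genes with an unadjusted p below 0.05 are shown, so likeness in fold change is partly set by selection.

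By size of change alone, the genes listed only with FLAG-TASOR2 that were nearest to RNU1-28P, the U1 copy with the highest mean expression, were ZNF362, ZNF502, BORCS5, HBZ and VASH1-AS1. Their log2 fold changes in the authors' deposited table ran from 1.37 to 1.38. With only 1 comparison behind it, this likeness is one of size, among 740 such genes. No such likeness is given for the 5.8S genes, since a fold against a group at 0 has no fixed size.

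No U1 gene was listed for the TASOR knockout, where 1.92% of tested genes were listed in either direction, or for the knockout with FLAG-TASOR, where that share was at most 1.87%. In those tables a U1 gene may have been untested, or may have missed the limits on p or on fold change, and its absence from a table does not place it at the level of the controls. Each comparison uses the same 2 control libraries. The difference in U1 between the 3 altered groups was not tested, because a gene that is not listed carries no value.

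The 5.8S ribosomal RNA genes appeared in a different way, as 1 copy in each of 2 comparisons and in opposite directions. The sequence of RNA5-8SN2 is shown because it is shared with other copies. It has 153 bases, comes from GENCODE 29, and lies at chr21:8212572-8212724 on the plus strand of GRCh38.
RNA5-8SN2: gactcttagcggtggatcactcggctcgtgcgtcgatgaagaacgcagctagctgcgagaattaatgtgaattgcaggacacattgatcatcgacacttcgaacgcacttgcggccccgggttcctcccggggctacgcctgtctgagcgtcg

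The same 153 bases are annotated for RNA5-8SN1 and RNA5-8SN3 on chromosome 21, so 3 named copies are identical, while the 5 annotated pseudogenes differ. RNA5-8SN1 and RNA5-8SN3 were not listed in any comparison. Reads from within identical copies cannot be assigned by sequence, so the values of RNA5-8SN2 are not read as those of that gene alone. RNA5-8SN5 lies on the unplaced scaffold GL000220.1 at 112025 to 112177. Its length is also 153 bases, and its letters were not compared here. RNA5-8SN2 lies in an intron of the long non-coding RNA gene FP671120.1.

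RNA5-8SN5 was listed as lower in the TASOR knockout, where the authors' deposited table gives it a p of 6.15e-05 and an adjusted p of 0.430. Of 13992 tested genes that table lists 0.936% as lower, and 0.00715% had an adjusted p below 0.05. Its log2 mean expression over the 4 libraries of that comparison was 4.04. The degrees of freedom behind its p came to 4.36, against 5.36 for the table, which is taken to mean that all counts of a group were 0. As the gene was lower in the knockout, that group would be the knockout libraries. No fold is given for it.

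RNA5-8SN2 was listed as higher with FLAG-TASOR2, where the authors' deposited table gives it a p of 0.00594 and an adjusted p of 0.215. Its log2 mean expression was 6.30, above that of the listed U1 copies. Its degrees of freedom were 5.01, against 6.01 for the table, so the group taken to be at 0 would be the controls. On this reading the same control libraries had counts for RNA5-8SN5 and none for RNA5-8SN2. Neither gene passed an adjusted p of 0.05 (0 of 2), neither was listed in the other's table, and no member at all was listed for the knockout with FLAG-TASOR (0 members).

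Other ribosomal RNAs were listed in the same direction as RNA5-8SN2. The mitochondrial 12S ribosomal RNA MT-RNR1 stood at a log2 fold change of 5.90 ± 2.18 (adjusted p 0.366) in the authors' deposited table for FLAG-TASOR2. That SE is the largest among genes listed as higher there, apart from those taken to have a group at 0. The median SE of those genes was 0.56. In the authors' deposited tables the 16S ribosomal RNA MT-RNR2 stood at 5.60 ± 1.98 with FLAG-TASOR2 (adjusted p 0.349). It stood at 1.02 ± 0.25 in the knockout with FLAG-TASOR (adjusted p 0.999). No gene listed for the knockout with FLAG-TASOR had an adjusted p below 0.05. Ribosomal RNA depletion can target MT-RNR1 and MT-RNR2 as well as 5.8S ribosomal RNA. Whether it targeted the mitochondrial RNAs in these libraries is unknown here, and its part in the 5.8S result was not tested. No 5S, 18S, 28S or 45S ribosomal RNA gene was listed in any of the 3 tables.

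A few other short RNAs were listed with FLAG-TASOR2, 2 of 1686 symbols of other spliceosomal small nuclear RNAs and 2 of 1514 symbols of other short structured RNAs, and these 4 were listed as higher. How many of those symbols were tested is unknown, so the counts are not set against the 2.56% of tested genes listed as higher. RNU5E-1, a U5 gene of the major spliceosome, stood in the authors' deposited table at a log2 fold change of 1.40 ± 0.54 (adjusted p 0.386), and RNU12, of the minor spliceosome, at 1.37 ± 0.55 (adjusted p 0.406). Both lay within the range of the U1 copies, as did 71 of the 358 genes listed as higher, with these and the U1 copies included. Their unadjusted p-values by the authors' F score, 0.0419 and 0.0487, were near the limit of 0.05 for listing. Their place in that range is therefore partly set by selection. By annotation type, 13 of 1909 small nuclear RNA genes were listed with FLAG-TASOR2, all as higher. They are the 10 U1 members, the gene named only U1, RNU5E-1 and RNU12. The Y RNAs RNY1 and RNY3 are small polymerase III transcripts bound by the Ro protein. With FLAG-TASOR2 they stood at 3.02 ± 0.87 (adjusted p 0.264) and 1.78 ± 0.61 (adjusted p 0.333), also in the authors' deposited table. In the knockout a gene with the symbol U2 (chromosome 17, 43273101 to 43273292, in an intron of CCDC200) was lower by the authors' deposited table (adjusted p 1.00) and is taken to have a group at 0. It was noticed after its values were seen. SNORD3D, a U3 small nucleolar RNA gene, stood at 1.16 ± 0.46 in the authors' deposited table for the knockout with FLAG-TASOR (adjusted p 0.999).

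Replication-dependent histone genes, whose messenger RNAs also lack a poly(A) tail, had 4 of 94 symbols listed with FLAG-TASOR2, all as lower. Of all tested genes, 3.76% were listed as lower. How many of the 94 were tested is unknown, so the count is not set against that share, and nothing is read from it about histone genes. H3C4, a gene for histone H3, stood at a log2 fold change of -1.28 ± 0.38 (adjusted p 0.280) and H3C12 at -1.07 ± 0.28 in the authors' deposited table. H4C9, for histone H4, was at -1.13 ± 0.46 and H2BC18, for histone H2B, at -1.15 ± 0.47 there. None of the 4 passed an adjusted p of 0.05.

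Genes for the partners of U1 were not listed. None of 14 U1 particle and Sm protein genes, 24 genes of small nuclear RNA transcription and 3′ processing, or 16 genes of particle assembly and export was in any of the 3 tables. With FLAG-TASOR2, 6.31% of all tested genes were listed in either direction, and with shares of this size or lower, lists this short can hold no listed gene. Of 35 genes for the making and maturation of 5.8S ribosomal RNA, 1 was listed. TAF1B, a subunit of the polymerase I selectivity factor, stood at 1.01 ± 0.26 (adjusted p 1.00) in the authors' deposited table for the knockout. In the authors' deposited tables TASOR2 stood at a log2 fold change of 2.26 ± 0.27 in FLAG-TASOR2 cells (adjusted p 0.125) and TASOR at -1.08 ± 0.23 in knockout cells (adjusted p 1.00). The direction of the fold changes was itself read from these signs, so they are no separate check of the labels. Neither gene passed an adjusted p of 0.05. TASOR was not listed for the knockout with FLAG-TASOR, so the direction of that comparison is assumed to be the same.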

How the data were processed

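The tools credited in the submitters' processing notes are STAR 2.7.8, Salmon, DESeq2 and edgeR, on hg38, with no role for each. Per the file headers, each deposited table covers 1 comparison and holds for each gene the log2 fold change, the log2 of mean CPM, the F score, and the p-value before and after adjustment. A check of the deposited values showed that the authors kept only genes with p under 0.05, a change over 1 in either direction and a mean over 1, both on the log2 scale. The fold changes are read as altered cells over controls, the direction in which TASOR is lower in its knockout and TASOR2 higher with its transgene. Depth per library is unknown, and no model was refitted. The number tested was recovered from adjusted over unadjusted p of the top gene for 2 tables. For the knockout with FLAG-TASOR the largest row number, 13957, is a lower bound. An approximate SE is the absolute log2 fold change over the square root of F. A gene with 1 degree of freedom less than its table is taken to have a group at 0, which holds if a quasi-likelihood F-test made the tables. Recovery of the number tested, of the SE and of the lost degree of freedom was tested on simulated data. That simulation held no counts and set the lost degree of freedom directly. The reading of such a loss as a group at 0 was therefore not tested. Sequences and positions are from GENCODE 29, compared by global alignment (Biopython 1.88). Named genes are all listed members, TASOR and TASOR2, up to 4 listed members of each further list, and up to 5 genes nearest in pattern. Members and lists were chosen with earlier results of these data known.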

Additional observations from a re-analysis of the deposited data

How the results depend on the processing

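No paired analysis was possible because the tables hold no value per library, and for the same reason no replicate could be left out. In place of 11 members listed with FLAG-TASOR2, an adjusted p below 0.05 left 0, a p below 0.01 left 1 and an absolute log2 fold change above 2 left 1. With identical U1 copies counted once, 4 were left, an alternative chosen after seeing the data. In the knockout, an adjusted p below 0.05 left 0 in place of 1. The median U1 log2 fold change was 1.34, 1.38 for the copy of highest mean expression and 1.43 with identical copies counted once. Unlisted members have no value here, and depth is unknown.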
